A study of Mus musculus with 21 samples.

Results

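The genes that differed most clearly between R403Q and wild-type (WT) left ventricles on the control diet (CD) were followed into mice fed empagliflozin (EMPA). The 10 genes, of 55450 in the table of counts, are Htatip2, Epdr1, Sept6, Rp1, Sec14l5, Gm35330, Gm33474 and AC119982.1, which were higher in R403Q-CD hearts, and Trabd2b and Sh3rf2, which were lower. They were chosen by the size of their p-values in R403Q-CD against WT-CD hearts, so every value of that comparison is given as a description. On the EMPA diet, in mice whose levels had no part in that difference, all 10 genes differed in the same direction (71.8% of all genes did so), 8 of them without overlap between genotypes (6.33% of all genes). On EMPA 5 passed the test (0.739% of all genes): Gm35330, Rp1, Sec14l5, Sept6 and Epdr1. The R403Q-EMPA mice entered the estimate of spread behind the choice, which can favour these counts. With cage as a block in the model, 0 of the 10 passed, and 6 genes did over all genes tested. Sh3rf2 was the gene that held least, with R403Q-EMPA values inside the range of WT-EMPA hearts.

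R403Q is a missense change in the cardiac myosin heavy chain that causes hypertrophic cardiomyopathy, a thickening of the heart muscle. EMPA inhibits the sodium-glucose cotransporter SGLT2. The males were of strain 129S6/SvEv, and the R403Q mice, labelled Myh6+/R404Q (R403Q), carried a single mutant copy of Myh6 in every cell next to a normal copy, while WT mice were their littermates. The groups were WT-CD (n = 5), R403Q-CD (n = 7), WT-EMPA (n = 5) and R403Q-EMPA (n = 4), 1 sample per mouse. Feeding began at 9 to 10 weeks of age, and the EMPA diet was the control diet with 0.15 mg of drug per g, about 15 mg per kg of body weight. The sample labels give 16 weeks of diet, whereas the study's design places tissue collection at 12 weeks of age after 2 weeks of diet, so the age at collection is uncertain. By the cage numbers in the sample labels, mice on CD lived in 4 cages, mice on EMPA in 3 others, and 0 cages held both diets, so cage and diet cannot be told apart.

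Totals ran from 23491535 to 43539684 counts per mouse, and 3 counts, used as the detection limit, equalled 0.0689 to 0.128 CPM depending on the mouse, a limit for counting error only. CPM are counts scaled to a common library total. Cardiac muscle markers were abundant: the summed level of 7 cardiomyocyte genes was 56927 to 101045 CPM across the 4 groups. R403Q-CD mouse 2 stood apart, with the highest Nppa (10988 CPM) and the lowest Myh6 (17517 CPM) of all mice. Fewer cells of a type and less RNA per cell cannot be told apart in such whole-tissue samples.

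The 7 protein-coding genes have different jobs. Septins such as Sept6 are GTP-binding proteins that assemble into filaments of the cytoskeleton, and Rp1 is a doublecortin-domain protein of the photoreceptor axoneme in the retina. Sec14l5 belongs to the SEC14-like lipid-binding proteins, Epdr1 is an ependymin-related secreted and lysosomal glycoprotein, and Htatip2 (also TIP30) is a reductase-family protein that interacts with HIV Tat and with nuclear import factors. Trabd2b (also TIKI2) is a membrane protease that inactivates Wnt ligands, and Sh3rf2 is a RING and SH3 domain protein that acts on the POSH scaffold of the JNK pathway. Gm35330, Gm33474 and AC119982.1 are annotated as lincRNAs, long non-coding RNAs between genes, and carry provisional names only.

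RefSeq starts on GRCm38.p6 were matched for 4 of the 10 genes, the protein-coding Htatip2, Sec14l5 and Epdr1 and the lincRNA Gm33474, all higher in R403Q hearts. The sequence before the start site is shown for all 4, to let the starts of genes that differed in the same direction be read side by side. Each line gives the 250 bases before the first listed start, 5′ to 3′, with matches to the searched motifs in capitals.
Htatip2 (chr7:49758856-49759105, + strand): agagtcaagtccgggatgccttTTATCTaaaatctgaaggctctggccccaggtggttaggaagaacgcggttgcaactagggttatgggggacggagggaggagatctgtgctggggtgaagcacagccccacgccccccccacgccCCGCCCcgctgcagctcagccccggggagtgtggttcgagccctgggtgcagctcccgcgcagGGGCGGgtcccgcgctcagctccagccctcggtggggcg
Sec14l5 (chr16:5146859-5147108, + strand): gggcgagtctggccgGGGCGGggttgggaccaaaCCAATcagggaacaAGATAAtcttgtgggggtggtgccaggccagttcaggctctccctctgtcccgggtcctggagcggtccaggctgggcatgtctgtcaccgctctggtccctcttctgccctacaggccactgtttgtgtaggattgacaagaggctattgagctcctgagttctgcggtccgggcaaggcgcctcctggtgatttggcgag
Epdr1 (chr13:19619831-19620080, - strand): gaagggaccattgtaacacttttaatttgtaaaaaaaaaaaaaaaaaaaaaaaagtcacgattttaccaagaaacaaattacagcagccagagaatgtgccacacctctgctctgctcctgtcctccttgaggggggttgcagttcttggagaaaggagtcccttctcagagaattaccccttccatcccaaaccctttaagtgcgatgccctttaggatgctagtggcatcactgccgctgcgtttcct
Gm33474 (chr5:107048327-107048576, + strand): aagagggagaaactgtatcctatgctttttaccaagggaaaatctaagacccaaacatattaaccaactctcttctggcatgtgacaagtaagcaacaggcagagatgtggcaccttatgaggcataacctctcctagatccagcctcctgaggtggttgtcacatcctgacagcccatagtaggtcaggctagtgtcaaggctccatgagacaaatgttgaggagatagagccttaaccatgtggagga
The capitals mark 3 kinds of motif, each searched on both strands. The letters of the GC box are GGGCGG. For the GATA site the letters were AGATAA. The CCAAT box carries its letters in its name. The Htatip2 stretch holds 2 GC boxes, at positions -102 and -39 from the start, and a GATA site at -228, and 67.2% of its bases are G or C. The Sec14l5 stretch holds a GC box at -235, a CCAAT box at -216 and a GATA site at -202, with 61.6% G or C. The Epdr1 and Gm33474 stretches hold none of the 8 motifs searched and have 44% and 46.4% G or C, against a median of 52.4% over all 32851 promoters in the table. Of those promoters, 32.7% hold a GC box, 33.8% a CCAAT box and 9.99% the GATA letters. The other letters searched were TATAAA (12.4% of promoters), CACGTG (6.02%), TGACTCA (4.46%), CATTCC (12.6%) and CTANNNNTAG (3.2%), and none of these is in the 4 stretches. The stretch before a second listed start of Htatip2, not printed, has 62.4% G or C and holds a CCAAT box at -69, the TGACTCA letters at -49 and the CATTCC letters at -186 from that start. A match to these letters is a description of the sequence and not evidence of binding.

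The genes span a wide range of expression. Per kilobase of exon, the mean level in WT-CD hearts was highest for Trabd2b (14.2 CPM per kb), Sh3rf2 (14 CPM per kb) and AC119982.1 (12.3 CPM per kb), at percentiles 79.2 to 81.6 of genes. Htatip2 (8.23 CPM per kb) and Epdr1 (7.44 CPM per kb) followed. Gm35330 (1.95 CPM per kb), Sept6 (1.17 CPM per kb) and Sec14l5 (0.596 CPM per kb) lay below the median gene, and Rp1 (0.182 CPM per kb) and Gm33474 (0.18 CPM per kb) were lowest, at percentiles 9.87 and 9.76. All 10 passed the filter on low counts even in the WT mice alone, so none entered through R403Q hearts.

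**Figure D1:**
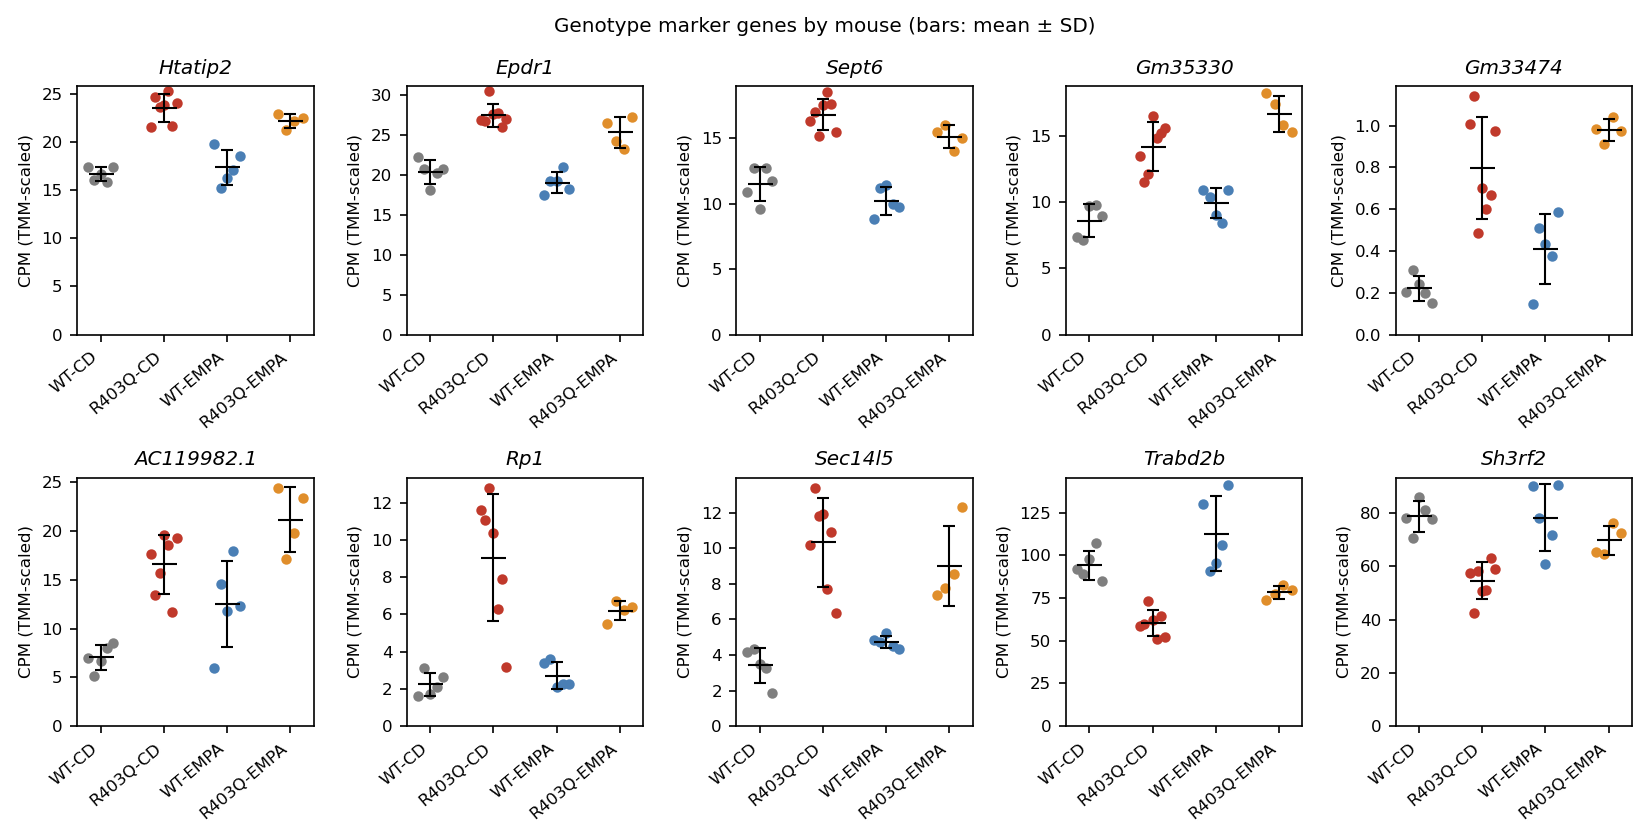
CPM (y axis, from 0) of each of the 10 genes in WT-CD (n = 5), R403Q-CD (n = 7), WT-EMPA (n = 5) and R403Q-EMPA (n = 4) hearts, with 1 point per mouse and bars for mean ± SD. The R403Q points of Htatip2, Epdr1, Sept6, Gm35330 and Sec14l5 lie above all WT points and those of Trabd2b below, while R403Q-EMPA and WT-EMPA points overlap for AC119982.1 and Sh3rf2.

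By the rule, the 10 genes rank among the first 13 of 17025 genes tested in R403Q-CD against WT-CD hearts by edgeR's quasi-likelihood test, where 98 genes (0.576%) had an adjusted p-value under 0.05. Htatip2 ranked first (edgeR adjusted p = 0.00109) and Sh3rf2 last of the set, at rank 13 (adjusted p = 0.0106). The genes at ranks 4, 11 and 12, namely 2610028H24Rik, 2010001K21Rik and Cacna1g, are not in the set. The next gene after Sh3rf2 was Crip3 at rank 14 (edgeR adjusted p = 0.0115), so no gap in the values marks the edge. That fit also held the 4 R403Q-EMPA mice, which contributed to the estimate of spread and not to the difference. A small spread in these mice helped a gene to rank high, which can also favour its separation and test on EMPA.

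The EMPA comparison was fitted on the 9 EMPA mice alone, with adjustment over all 16635 genes tested. Of the 10 genes, 5 had an adjusted p under 0.05, all higher in R403Q-EMPA, against 0.739% of all genes tested (123 genes) in either direction and 0.403% in the higher direction. At an unadjusted p under 0.05, 9 of the 10 genes passed, against 19% of all genes. All 10 had the sign of their control-diet difference, as did 71.8% of all genes, and 8 had every R403Q-EMPA mouse beyond every WT-EMPA mouse in that direction, against 6.33% of all genes. The median absolute log2 fold change was 0.65 over the 10 genes and 0.14 over all genes tested. Among the 85 other genes past the threshold in R403Q-CD against WT-CD that could be tested on EMPA, 83 (97.6%) had the same sign, 43 (50.6%) did not overlap and 12 (14.1%) passed the threshold in the same direction.

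These counts moved with single mice. Only 2 of the 10 genes passed without WT-EMPA mouse 5 or without R403Q-EMPA mouse 3, and 3 passed without WT-EMPA mouse 2, R403Q-EMPA mouse 1 or R403Q-EMPA mouse 2. With cage as a block, 0 of the 10 passed (edgeR; 8 had an unadjusted p under 0.05), while DESeq2 passed 8 and no filter on low counts 9. Over all genes 6 passed with the block, 912 with DESeq2 and 513 with no filter, beside 123 in the main fit. Under the cage block the log2 fold changes were 1.46 for Rp1, 0.78 for Gm35330, 0.61 for Sept6 and 0.37 for Epdr1, beside 1.18, 0.74, 0.56 and 0.41 without it, and that of Sec14l5 was above its 0.91 without it. The block gave smaller values for AC119982.1 (0.49 beside 0.74), Gm33474 (1.03 beside 1.24) and Htatip2 (0.32 beside 0.35). For Trabd2b (-0.65 beside -0.53) and Sh3rf2 (-0.22 beside -0.17) the values lay further from no difference. The direction of all 10 held under each of the 15 alternatives.

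**Figure D2:**
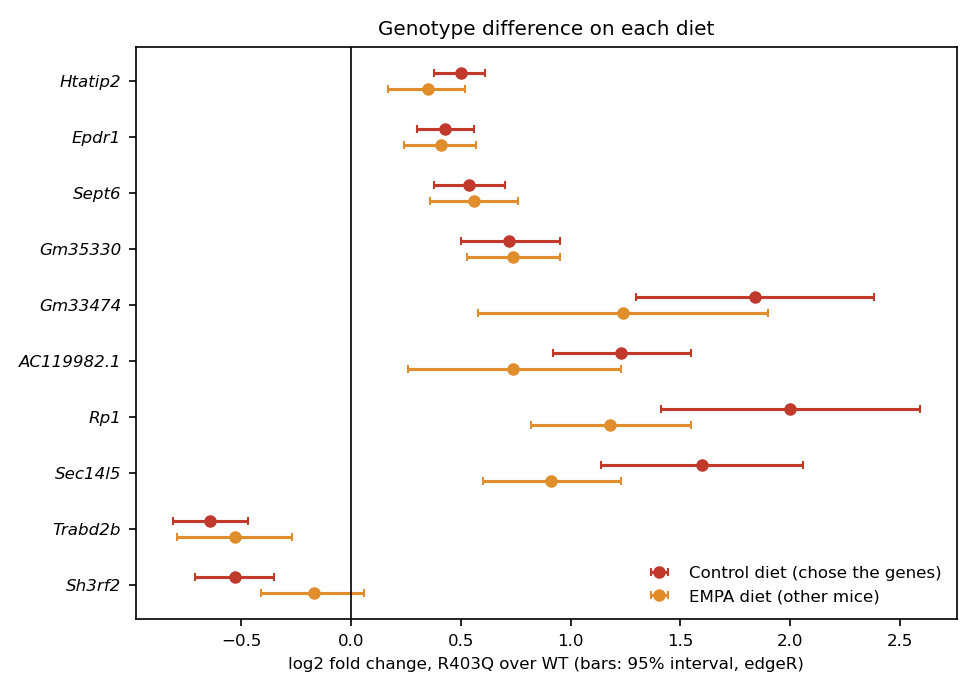
The log2 fold change of R403Q over WT hearts (x axis) in each of the 10 genes, on the control diet (red, the comparison that chose the genes) and on the EMPA diet (orange, in mice without part in the CD difference), with 95% intervals from edgeR. All 10 pairs lie on the same side of 0, and the EMPA interval crosses 0 for Sh3rf2, from -0.41 to 0.06.

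Sept6 and Rp1, the genes of the cytoskeleton and axoneme, were both higher in R403Q-EMPA than in WT-EMPA hearts and passed the test. Sept6 (ENSMUSG00000050379, X chromosome of GRCm38, 36911326 to 36991794, minus strand) was measured at 10.9, 12.7, 9.6, 12.7 and 11.7 CPM in WT-CD mice and at 15.2 to 18.5 CPM (median 17) in R403Q-CD mice. It was at 8.81, 11.2, 11.4, 10 and 9.77 CPM in WT-EMPA mice and at 15.5, 16, 14 and 15 CPM in R403Q-EMPA mice. The R403Q mice on either diet thus all lay above the WT mice on either diet. On EMPA its log2 fold change was 0.56 (SE 0.0921, edgeR adjusted p = 0.0256), beside 0.54 on CD. An antisense gene, Gm15008, overlaps 308 bases, or 3.12%, of the Sept6 exons, and the strand setting of the counting is not certain, so its reads could be included.

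Rp1 (ENSMUSG00000025900, chromosome 1 of GRCm38, 3999557 to 4409241, minus strand) was low in WT hearts, at 1.63, 3.14, 1.72, 2.1 and 2.62 CPM in WT-CD mice, and reached 3.19 to 12.8 CPM (median 10.4) in R403Q-CD mice. WT-EMPA mice had 3.37, 3.59, 2.12, 2.24 and 2.27 CPM and R403Q-EMPA mice 5.51, 6.7, 6.23 and 6.41 CPM. The EMPA groups did not overlap, while R403Q-CD mouse 7, the lowest of its group, lay below the highest WT-EMPA mice. The EMPA contrast gave a log2 fold change of 1.18 (95% interval 0.82 to 1.55, edgeR adjusted p = 0.00995). That is 2.27-fold, beside 4-fold on CD, and since the CD value chose the gene, the difference between diets was not tested. Photoreceptor markers were nearly absent: Crx was at 0 in all mice, Pde6b was at most 0.0273 CPM and Gnat1 at most 0.259 CPM.

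The lipid-binding protein gene Sec14l5 and the secreted and lysosomal protein gene Epdr1 were also higher in R403Q-EMPA than in WT-EMPA hearts, and both passed the test. Sec14l5 (ENSMUSG00000091712, chromosome 16 of GRCm38, 5147109 to 5187271, plus strand) was at 4.14, 4.31, 3.51, 3.29 and 1.85 CPM in WT-CD mice and at 6.35 to 13.4 CPM (median 10.9) in R403Q-CD mice. In WT-EMPA mice it was at 4.86, 4.75, 5.25, 4.49 and 4.32 CPM, and in R403Q-EMPA mice at 7.4, 7.75, 8.53 and 12.3 CPM. No WT mouse reached any R403Q mouse, and all 5 WT-EMPA mice were above all 5 WT-CD mice. Between EMPA genotypes the log2 fold change was 0.91 (SE 0.146, 95% interval 0.60 to 1.23, edgeR adjusted p = 0.0208), or 1.88-fold, beside 3.03-fold on CD, the value that chose the gene. R403Q-CD mice 5 and 7 were the lowest of their group for both Sec14l5 and Rp1, and R403Q-CD mouse 2, with the highest Nppa, had the highest Sec14l5. The next highest Nppa (3824 CPM) was in R403Q-CD mouse 5, where Sec14l5 was low for its group.

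Epdr1 (ENSMUSG00000002808, chromosome 13 of GRCm38, 19591706 to 19619927, minus strand) was at 22.3, 20.7, 18.1, 20.2 and 20.7 CPM in WT-CD mice and at 26 to 30.5 CPM (median 27) in R403Q-CD mice. The WT-EMPA mice had 17.5, 19.3, 19.2, 21 and 18.2 CPM and the R403Q-EMPA mice 26.5, 24.2, 23.3 and 27.3 CPM. The R403Q mice on both diets lay above every WT mouse. R403Q-EMPA differed from WT-EMPA by a log2 fold change of 0.41 (SE 0.0759, edgeR adjusted p = 0.0397), close to the 0.43 on CD. It passed in only 2 of the 9 fits without 1 EMPA mouse, whereas Rp1 and Gm35330 passed in 9 of 9.

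Htatip2 (ENSMUSG00000039745, chromosome 7 of GRCm38, 49759115 to 49773975, plus strand) had the smallest p-value on CD and did not pass on EMPA. It was at 17.4, 16, 16.7, 15.8 and 17.4 CPM in WT-CD mice and at 21.5 to 25.3 CPM (median 23.8) in R403Q-CD mice. It was at 19.8, 15.2, 16.3, 17.1 and 18.5 CPM in WT-EMPA mice and at 22.9, 21.2, 22.2 and 22.5 CPM in R403Q-EMPA mice. The genotypes again did not overlap, and the nearest WT-EMPA mouse was mouse 1. On EMPA its log2 fold change was 0.35 (95% interval 0.17 to 0.52, edgeR adjusted p = 0.0635), and without WT-EMPA mouse 1 it was 0.40 (adjusted p = 0.0454). That was the only 1 of the 9 fits without 1 EMPA mouse in which Htatip2 passed. Over its alternatives the adjusted p ran from 0.00749 to 0.279.

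The 2 genes that were lower in R403Q-CD hearts, both with roles in restraining signals, did not pass the test on EMPA, and the EMPA groups overlapped for Sh3rf2 and not for Trabd2b. Trabd2b (ENSMUSG00000070867, chromosome 4 of GRCm38, 114406724 to 114615098, plus strand) was at 91.9, 89.1, 97.9, 107 and 85 CPM in WT-CD mice and at 51 to 73.3 CPM (median 59.9) in R403Q-CD mice. WT-EMPA mice had 130, 90.8, 95.4, 106 and 141 CPM and R403Q-EMPA mice 73.8, 77.4, 82.6 and 79.8 CPM. The R403Q mice lay below all WT mice on both diets, and all 4 R403Q-EMPA mice lay above all 7 R403Q-CD mice. The EMPA contrast gave a log2 fold change of -0.53 (95% interval -0.79 to -0.27, edgeR adjusted p = 0.0591), beside -0.64 on CD. Over its 15 alternatives the adjusted p ran from 0.00294 with DESeq2 to 0.151, and 3 of them passed.

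Sh3rf2 (ENSMUSG00000057719, chromosome 18 of GRCm38, 42053667 to 42158960, plus strand) was at 78, 70.6, 86.2, 81.2 and 77.8 CPM in WT-CD mice and at 42.6 to 63.2 CPM (median 57.4) in R403Q-CD mice. WT-EMPA mice had 90.2, 78.3, 60.7, 71.9 and 90.4 CPM and R403Q-EMPA mice 65.4, 64.8, 76.2 and 72.5 CPM. The lowest EMPA mouse of all was a WT mouse, and 0 of 4 R403Q-EMPA mice lay below every WT-EMPA mouse. Between EMPA genotypes the log2 fold change was -0.17 (95% interval -0.41 to 0.06, edgeR adjusted p = 0.402), beside -0.53 on CD, the value that chose the gene. It was -0.11 without WT-EMPA mouse 1 or WT-EMPA mouse 5 and -0.25 without WT-EMPA mouse 3 (edgeR adjusted p = 0.147). All 4 R403Q-EMPA mice were above all 7 R403Q-CD mice here as well.

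Of the 3 lincRNAs, Gm35330 passed the test on EMPA and the other two did not. Gm35330 (ENSMUSG00000114053, chromosome 13 of GRCm38, 5539279 to 5724510, minus strand) was at 7.36, 7.16, 9.67, 9.78 and 8.93 CPM in WT-CD mice and at 11.5 to 16.5 CPM (median 14.8) in R403Q-CD mice. It was at 10.9, 10.4, 9, 8.43 and 10.9 CPM in WT-EMPA mice and at 18.2, 17.4, 15.8 and 15.3 CPM in R403Q-EMPA mice. The R403Q mice on either diet were all above the WT mice on either diet. R403Q-EMPA differed from WT-EMPA by a log2 fold change of 0.74 (SE 0.0981, edgeR adjusted p = 0.00831), the smallest adjusted p of the 10 genes, beside 0.72 on CD.

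Gm33474 (ENSMUSG00000106554, chromosome 5 of GRCm38, 107048836 to 107056042, plus strand) was close to the limit of detection, with 5 to 55 counts per mouse. It was at 0.204, 0.311, 0.241, 0.2 and 0.15 CPM in WT-CD mice and at 0.486 to 1.14 CPM (median 0.701) in R403Q-CD mice. WT-EMPA mice had 0.146, 0.509, 0.432, 0.374 and 0.589 CPM and R403Q-EMPA mice 0.984, 0.914, 1.04 and 0.976 CPM. The EMPA groups did not overlap, but the highest WT-EMPA mice reached the lower R403Q-CD values. On EMPA its log2 fold change was 1.24 (95% interval 0.58 to 1.90, edgeR adjusted p = 0.0713).

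AC119982.1 (ENSMUSG00000117692, chromosome 19 of GRCm38, 27260735 to 27262323, minus strand) was at 6.96, 5.14, 6.71, 7.99 and 8.5 CPM in WT-CD mice and at 11.7 to 19.6 CPM (median 17.7) in R403Q-CD mice. WT-EMPA mice had 6, 14.6, 11.8, 18 and 12.3 CPM and R403Q-EMPA mice 24.4, 17.1, 19.8 and 23.4 CPM. WT-EMPA mouse 4 exceeded R403Q-EMPA mouse 2, so 3 of 4 R403Q-EMPA mice lay beyond all WT-EMPA mice. The EMPA contrast gave a log2 fold change of 0.74 (95% interval 0.26 to 1.23, edgeR adjusted p = 0.115). On EMPA 4 of 5 WT mice lay in the range of R403Q-CD hearts, and WT-EMPA mouse 1 stayed at the WT-CD level.

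**Figure D3:**
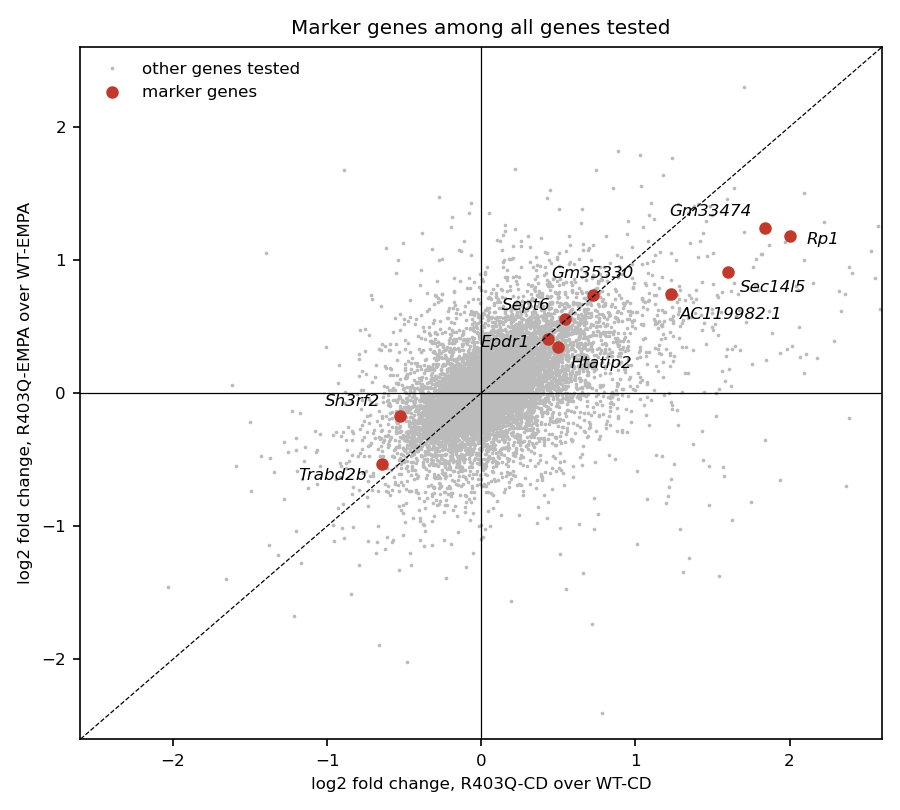
The log2 fold change of R403Q over WT hearts on CD (x axis) against that on EMPA (y axis) for 16554 genes tested in both, with the 10 genes in red and the dashed line marking equal values. The 10 genes lie in the quadrants of equal sign, 8 of them closer to 0 on EMPA than on CD, and 10 genes lie outside the plotted range.

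Over all 21 mice, 6 genes separated the 11 R403Q from the 10 WT mice completely: Htatip2, Epdr1, Sept6, Gm35330 and Sec14l5, higher in R403Q, and Trabd2b, lower. Of all 17309 genes tested in 4 groups, 46 (0.266%) did so. Because the CD mice chose the genes, the separation within CD is given by the rule. The R403Q-EMPA mice also lay beyond every WT-CD mouse for 9 genes, Sh3rf2 being the exception with 2 of 4 mice below all WT-CD mice, against 6.78% of 17025 genes in the direction of their CD difference. The WT-CD mice took part in the choice of the genes, which favours this separation, and nothing is read from it. Choosing genes by small p-values favours large CD fold changes, so the EMPA and CD fold changes of the 10 genes are set side by side and their difference was not tested.

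Of the 3 EMPA cages, 2 held both genotypes, each with 2 R403Q mice and 1 WT mouse. For the 8 genes whose EMPA groups did not overlap, the sign within these cages follows from that separation, and on CD it follows from the choice of the genes, so neither adds a result. For AC119982.1 it follows as well, because the mean of any 2 R403Q-EMPA mice lies above every WT-EMPA mouse. For Sh3rf2, where the sign was free, both EMPA cages had the direction of CD. The within-cage log2 differences on EMPA were 1.41 and 1.45 for Rp1, 0.65 and 0.57 for Sept6 and 1.07 and 0.50 for Gm35330. They were 0.18 and 0.81 for AC119982.1, and -0.14 and -0.28 for Sh3rf2. The other 3 WT-EMPA mice shared a cage without R403Q mice.

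The diet difference within each genotype shares mice with the choice of the genes and is given without a test. In R403Q hearts the EMPA minus CD log2 difference was 0.38 for Trabd2b and 0.35 for Sh3rf2, toward WT-CD levels, and -0.54 for Rp1 and -0.21 for Sec14l5, also toward WT-CD levels. It was 0.24 for Gm35330, 0.29 for Gm33474 and 0.35 for AC119982.1, the 3 lincRNAs, away from WT levels. In WT hearts the largest EMPA minus CD differences were 0.88 for Gm33474, 0.83 for AC119982.1 and 0.47 for Sec14l5, each toward R403Q levels. Trabd2b was also higher in WT hearts on EMPA, by 0.26, away from R403Q levels. For Htatip2, Epdr1 and Sept6 the differences in either genotype were between -0.18 and 0.06. These differences cannot be told apart from cage.

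**Figure D4:**
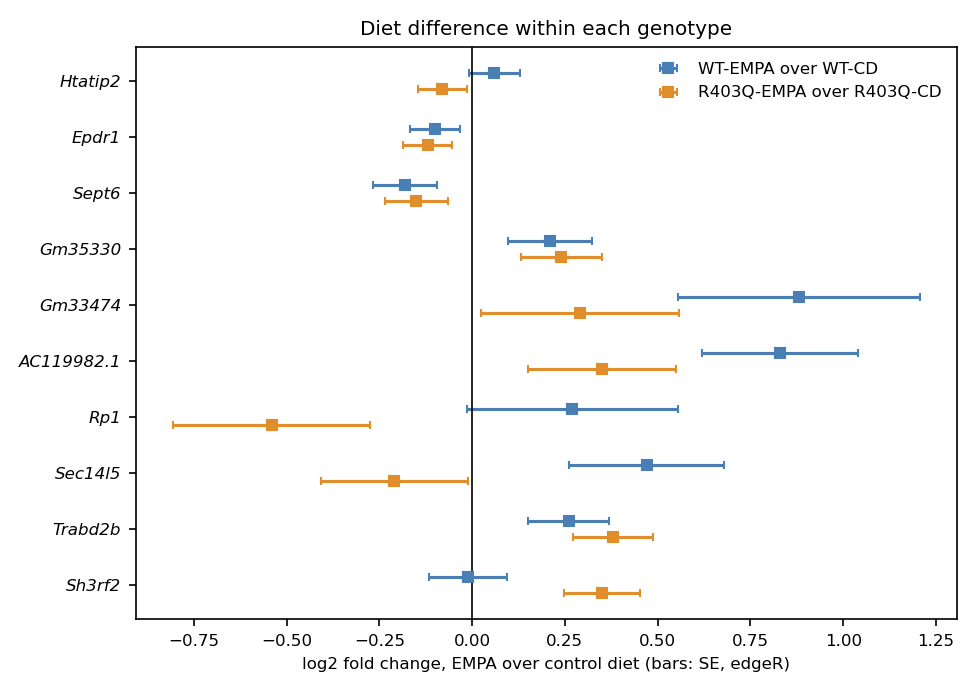
The log2 fold change of EMPA over control diet (x axis) in WT (blue) and R403Q (orange) hearts for each of the 10 genes, with SE from edgeR. WT values reach 0.88 for Gm33474 and 0.83 for AC119982.1, and R403Q values run from -0.54 for Rp1 to 0.38 for Trabd2b.

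The summed level of cell type markers did not overlap between the EMPA genotypes in 2 of 13 lists, the cardiomyocyte list counted among them and the photoreceptor and lymphocyte lists without a gene past the filter on low counts, a description without a test. The 5 macrophage markers summed to 111 to 187 CPM in WT-EMPA and 214 to 277 CPM in R403Q-EMPA mice, with Adgre1 alone past the threshold. The 6 fibroblast markers summed to 1024 to 1617 CPM and 1673 to 2082 CPM, with 0 of 6 past the threshold. None of these markers was at 0 in all mice, and their part in the differences of the 10 genes was not tested. On CD the sums of both lists overlapped between genotypes, at 137 to 193 and 190 to 337 CPM for macrophages and at 1119 to 1871 and 1510 to 4437 CPM for fibroblasts. Single markers did pass on CD by edgeR: Csf1r of the macrophage list, and Hcn4 and Cacna1g of the 5 conduction system markers.

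None of the 10 genes lies on chromosome 14 with Myh6. The nearest tested gene on either side was examined for each, 20 genes in all. By edgeR 0 of 20 passed on CD, against 0.576% of all genes. On EMPA 2 of the 17 tested passed, against 0.739% of all genes, and the neighbours named here were singled out after their values were seen. Nav2 (neuron navigator 2), 149025 bases from Htatip2, was lower in R403Q-EMPA than in WT-EMPA hearts, with a log2 fold change of -0.63 (edgeR adjusted p = 0.0295), opposite to Htatip2, and its CD value was -0.57 (adjusted p = 0.0828). Prelid2, next to Sh3rf2, was higher in R403Q-EMPA hearts by 0.53 (edgeR adjusted p = 0.0488), opposite to Sh3rf2. AC119982.1 lies 6504 bases from Vldlr, the very-low-density lipoprotein receptor, whose log2 fold change was -0.35 on EMPA (adjusted p = 0.142) and -0.23 on CD (adjusted p = 0.275).

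Genes with the most similar or most opposite pattern over the 21 mice were found by Pearson correlation of log2 CPM among 17299 other genes, and since the mice share the group structure, r describes that structure too. The EMPA mice entered this choice, which favours a genotype difference on EMPA, so the p-values of these genes are descriptions. Spearman's rank correlation of the pairs had the same sign, at 0.81 to 0.93 in absolute size. Rp1 was closest to 3300002A11Rik and 2610028H24Rik (r = 0.94 for both), and 2610028H24Rik was also among the closest to Htatip2 (r = 0.85, after Pir at 0.87) and Sec14l5 (r = 0.86, after 2010001K21Rik at 0.89). Pir encodes pirin, an iron-binding nuclear protein, and was higher in R403Q-EMPA than in WT-EMPA hearts by 0.60 on the log2 scale (edgeR adjusted p = 0.0334). Trabd2b was closest to Gm9899 and Adcy5 (r = 0.92 for both), the latter a main adenylyl cyclase of heart muscle, whose log2 fold change between the EMPA genotypes was -0.41 (edgeR adjusted p = 0.0433). Sh3rf2 was closest to Scmh1 (r = 0.92) and Bap1 (r = 0.91), a deubiquitinase.

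The others had their strongest match mostly of opposite sign. Epdr1 ran opposite to the T-type calcium channel Cacna1g (r = -0.88) and to Alg10b (r = -0.87). Sept6 ran opposite to Syngr2 (r = -0.91) and Ptp4a3 (r = -0.89), and Gm33474 was opposite to Syngr2 (r = -0.87) and like Olfr1396 (r = 0.88). AC119982.1 ran opposite to the adenosine receptor Adora1 (r = -0.89) and like Gm11878 (r = 0.88). Gm35330 was like the carboxypeptidase-family gene Cpxm2 (r = 0.87), which was higher in R403Q-EMPA than in WT-EMPA hearts by 1.41 on the log2 scale (edgeR adjusted p = 0.000754), and opposite to Sorcs2 (r = -0.86), whose log2 fold change there was -0.78 (adjusted p = 0.0158). Of the other matches, 2610028H24Rik passed on EMPA (edgeR adjusted p = 0.0363). Those that did not pass included Cacna1g (0.0574), 2010001K21Rik (0.0613), Alg10b (0.063), Olfr1396 (0.0816), Ptp4a3 (0.113) and Scmh1 (0.151). The same held for Gm9899 (0.168), Adora1 (0.232), Gm11878 (0.475) and Bap1 (0.796).

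Relatives and partners of the 7 protein-coding genes were read from lists that leave out the 10 genes. Of 87 genes in 7 lists, 0 of 70 tested passed on CD, against 0.576% of all genes (edgeR; 14 had an unadjusted p under 0.05, and DESeq2 passed 3) and 1 of 69 passed on EMPA, against 0.739% of all genes (15 had an unadjusted p under 0.05, as did 19% of all genes, and DESeq2 passed 8 list genes among 912 genes in all). That gene was Frzb, a secreted Wnt inhibitor, at 5.3 ± 0.746 CPM in WT-EMPA (SD, n = 5) and 8.93 ± 1.99 CPM in R403Q-EMPA hearts (SD, n = 4), with 0.75 as its log2 fold change (edgeR adjusted p = 0.0489). This call was lost with all 4 groups fitted, with cage as a block, with limma and in 7 of the 9 fits without 1 mouse, where 0 list genes passed (a list gene still passed without WT-EMPA mouse 4 or R403Q-EMPA mouse 4). Its CD value was 0.61 (edgeR adjusted p = 0.374). The other Wnt gene with the smallest p, Sost, had -1.28 on EMPA (adjusted p = 0.176).

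Among the 10 other septins tested, the median log2 fold change on EMPA was 0.07, and the smallest p-values belonged to Sept4 (0.15, adjusted p = 0.28) and Sept10 (0.18, adjusted p = 0.281). The 5 SEC14-like and related lipid carriers had a median of -0.04, with Sec14l2 at 0.47 (adjusted p = 0.358) and Ttpa, the vitamin E transfer protein, at -0.47 (adjusted p = 0.436). The 4 doublecortin-domain genes had a median of 0.17, with Dclk1 at 0.42 (adjusted p = 0.379) and Dclk3 at 0.61 (adjusted p = 0.384). In these 3 families 0 listed genes passed the threshold.

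The 13 JNK scaffolds and kinases had a median of -0.07, and the kinase Map2k4 (-0.22, adjusted p = 0.0879) and the scaffold Mapk8ip3 (-0.25, adjusted p = 0.104) had the smallest p-values. The 15 lysosomal genes had a median of 0.09, and the cholesterol carrier Npc2 had a value of 0.29 (adjusted p = 0.094). The 11 nuclear import and Tat-interacting genes had a median of -0.05, led by the importins Kpna1 (-0.21, adjusted p = 0.0876) and Kpna6 (-0.19, adjusted p = 0.132). Across all 16635 genes the median was 0.001.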

How the data were processed

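RNA was measured in left ventricles of 21 male mice. The authors extracted RNA from frozen tissue, mapped read pairs to mm10 by STAR 2.6.0c and counted uniquely aligned proper pairs with featureCounts of Subread 1.6.2. The deposited counts are whole reads per Ensembl gene without normalization, with no mitochondrial genes. A table of log2 values holds the authors' variance-stabilizing transformation of these counts, made with DESeq2 1.32.0. The methods give a same-strand setting whose meaning is not fully stated.

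The main test was that of edgeR 4.0.16 (R 4.3.3): filterByExpr (minimum count 10), TMM scaling and the quasi-likelihood F test, with Benjamini-Hochberg adjustment over all genes tested and a threshold of 0.05. CPM are counts scaled to a common TMM-corrected library total, log2 CPM used a prior count of 2, and 55190 of 55450 genes were named by a GENCODE annotation of GRCm38. R403Q-EMPA against WT-EMPA was fitted on 9 mice alone, R403Q-CD against WT-CD in the 3 groups for which the study gives RNA sequencing sample sizes, and diet differences in 4 groups. Groups came from the labels, and 1 mouse gave 1 sample. Alternatives were DESeq2 1.42.0, no filter on low counts, library size alone, all 4 groups or the CD mice alone, cage as a block, limma 3.58.1 on the log2 values, and leaving out each mouse in turn, and 0 were added afterwards. The test was tried on simulated counts.

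The 10 genes and the lists were chosen with earlier results of these data known. Named besides the 10 were, for each, the 2 genes with the highest absolute correlation over the mice, each list gene past the threshold, and per list the 2 with the smallest p on EMPA. Some items that meet these rules are not reported here.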

Additional observations from a re-analysis of the deposited data

Results flagged for a closer look

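Epdr1 in R403Q-CD mouse 3 was at 30.5 CPM, while the other 6 mice of that group lay between 26 and 27.8 CPM. Its gap to the nearest mouse was 0.588 of the range of the group, above Dixon's critical value for 7 samples. The 10 genes were examined in each of the 4 groups, 40 tests in all, and chance alone marks about 1 in 20. The mouse belongs to the comparison that chose the genes.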

How the results depend on the processing

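All 10 genes kept their direction on EMPA under every alternative, 0 of 150 single-gene values reversed, and 21 lost and 10 gained the threshold. Of the 10 genes, 5 passed on EMPA. DESeq2 gave 8, no filter on low counts 9, all 4 groups fitted together 3 and cage as a block 0 (adjusted p from 0.053 upward), and fits without 1 mouse gave 2 to 6. Over all genes the 123 passing became 912 with DESeq2, 513 with no filter, 10 with 4 groups and 6 with cage as a block, and 22 to 224 without 1 mouse. The 1 list gene on EMPA became 8 with DESeq2, 2 with no filter or library size alone, and 0 with 4 groups, cage as a block or limma, and 0 to 1 without 1 mouse (0 in 7 of 9 fits). The 0 list genes on CD became 3 with DESeq2 and 0 to 2 without 1 mouse. The count without overlap was 8 to 9 and the count in the CD direction 10 to 10 without 1 mouse, and all 10 passed on CD in each fit without 1 mouse. With cage as a block 7 passed on CD, and Sept6 (edgeR adjusted p = 0.065), Gm35330 (0.0602) and Sh3rf2 (0.0525) did not. The cause of these shifts was not tested. No paired analysis was possible because the labels give the groups no shared replicate numbers and match no mouse to another. Mice of both genotypes did share cages, so a fit with cage as a block was run. With 4 and 5 mice on EMPA, the precision is limited by the number of mice and, for Gm33474, by depth.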
